A study of Mus musculus with 6 samples.

Results

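The receptors through which hippocampal neurons read glutamate, GABA, glycine, acetylcholine, dopamine and serotonin were followed in RNA sequencing of mouse hippocampus. Members were taken by gene symbol: any listed symbol that begins with a receptor prefix (Gria, Grid, Grik, Grin, Grm, Gabra, Gabrb, Gabrg, Gabbr, Glra, Chrm, Chrn, Htr, Drd, Adra or Adrb) and goes on with a digit. This found 29 of the 3733 genes in the authors' deposited table, 28 of them receptor subunits or receptors. The other is Grid2ip, the gene of a scaffold protein that binds the delta2 glutamate receptor, which the symbol rule takes in. The members are 7 ionotropic glutamate genes, 3 metabotropic glutamate receptors, 11 GABA-A and glycine receptor subunits, and 8 receptors for acetylcholine, dopamine and serotonin. No listed symbol met the rule for Gabbr, Chrn, Adra or Adrb.

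Libraries came from 3 groups of 2: PIA+IL-27, PIA and Control. PIA is short for postnatal immune activation, and the design text calls these groups LPS+rIL-27, LPS and control. LPS is bacterial lipopolysaccharide, an activator of innate immunity, and rIL-27 is recombinant interleukin-27, a cytokine. The labels give the tissue and the treatment but no strain, sex, age, dose, timing or animal, so the spread between the libraries of a group may be technical in part, and p-values measure that spread only. The comparisons ask which receptor genes differ after immune activation and which differ when IL-27 is added to it.

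Fast excitation in the hippocampus runs through AMPA receptors, tetramers of Gria subunits. Kainate and NMDA receptors are built from Grik and Grin subunits, and NMDA receptors admit calcium and are needed for many forms of synaptic plasticity. Fast inhibition runs through GABA-A receptors, pentamers that usually hold alpha, beta and gamma subunits, with GABA bound between alpha and beta. Metabotropic glutamate receptors and most receptors for acetylcholine, dopamine and serotonin signal through G proteins and tune both.

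Every gene in the deposited table had been called by the authors in at least 1 of their comparisons (log2 fold change of 1 or more in either direction, Q of 0.05 or less), so counts of members are set beside the same counts over the other selected genes, and receptor genes that were not selected are not analysed here. The listed genes held 641672 to 1593441 reads per library, at an estimated depth of 14622472 to 15863269 reads. The replicates of Control stood apart: the listed genes took 2.14% of all TPM in Control 1 and 5.61% in Control 2, against 4.76% and 3.86% in PIA+IL-27 and 3.66% and 2.39% in PIA. Levels are given below as the authors' normalized reads (read count divided by 1 factor per library) for 1 gene across libraries, and as TPM, which corrects for length, between genes. Of the hippocampal markers, 4 of 8 for dentate granule cells and 2 of 6 for CA1 pyramidal cells were in the table, with reads in all 6 libraries. Of 8 neocortical markers 5 were in it, and their summed normalized reads were 3970 and 874 in PIA+IL-27 1 and 2, with 1186 and 3665 in PIA 1 and 2, against 1028 and 837 in Control 1 and 2. In such tissue RNA, fewer cells of a type and less RNA per cell cannot be told apart.

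By mean TPM over the 6 libraries, the GABA-A subunit Gabra3 averaged 36.8 ± 18.2 TPM, the AMPA subunit Gria2 25.9 ± 19.4 and the metabotropic receptor Grm5 20.7 ± 14.5 (SD over 6 libraries, all groups together). Next came Gria4, Grik2, Gabra2, Htr2c, Grin2b, Gabrb2 and Grm4, between 13.7 and 10.2 TPM. Gria3, Gabra4, Gabrb1, Htr3a, Gabrg1, Grin2a, Grm8, Htr1b, Drd5 and Chrm2 lay between 9.33 and 1.04 TPM in that order. Htr2a, Grid2ip, Drd4, Glra3, Htr2b and Glra4 lay at 0.750 TPM or lower, with Glra4 last at 0.0533 TPM. No neighbours in this order differed by more than the larger of their SDs. The 2 members that did not reach the minimum of reads for testing were Glra4, a glycine receptor subunit with at most 3.84 normalized reads in any library and 0 in both Control libraries, and Drd4, a Gi-coupled dopamine receptor. The other 27 were tested.

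**Figure D1:**
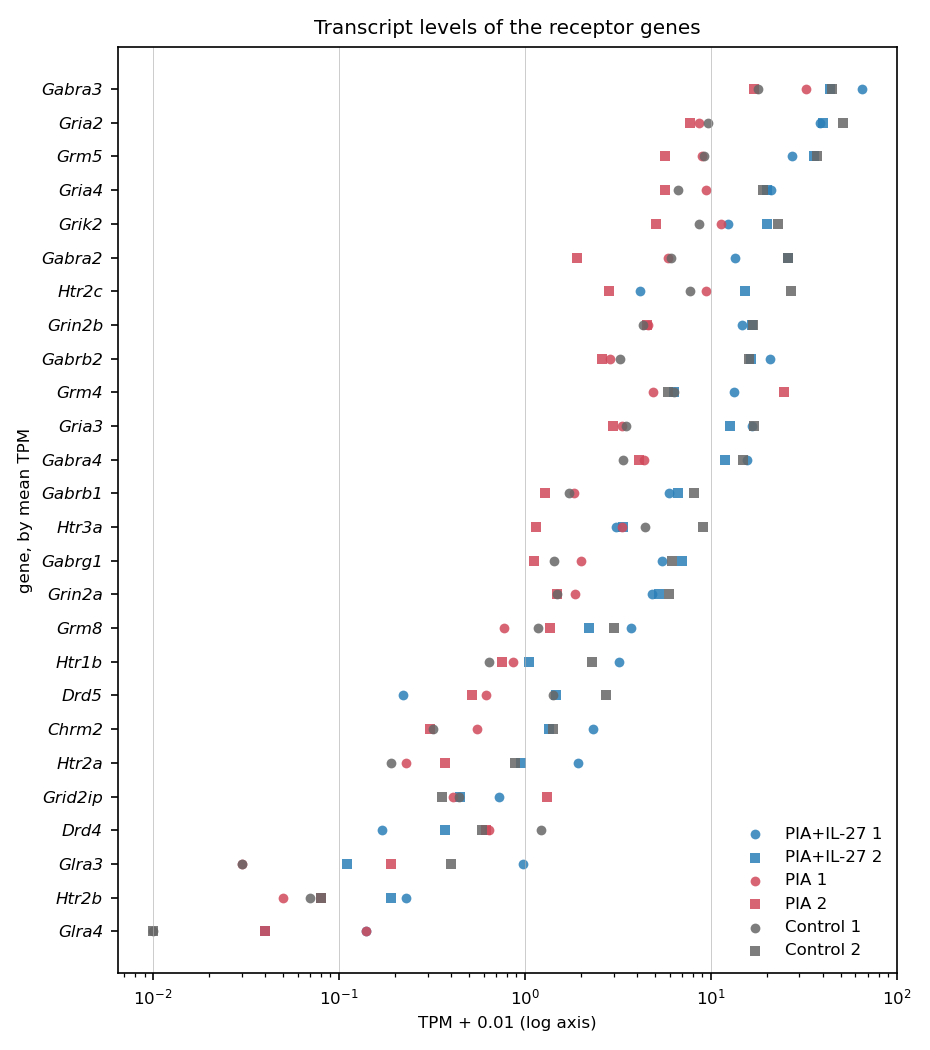
Levels of 26 of the 29 receptor genes in the 6 libraries, as TPM + 0.01 on a log axis, with points coloured by group (PIA+IL-27, PIA, Control) and genes ordered by mean TPM. Gabra3 and Gria2 are at the top, and for most genes 1 Control library lies near the PIA libraries and the other near the PIA+IL-27 libraries.

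The windows at the starts of 3 genes are shown because these genes stand for the patterns described below. Gria2 and Gabrb2 are the glutamate and GABA-A genes with the largest fitted differences in PIA+IL-27 against PIA. Htr2c is a serotonin receptor with another pattern across libraries. Each window runs from 250 bases before to 50 after a start in RefSeq, build GRCm38.p6, 5′ to 3′ on the strand of the gene. Gabrb2 has 3 listed starts, of which 1 is shown, and Gria2 and Htr2c have 1 each. Capitals mark the GC box GGGCGG or its complement CCGCCC and the TATA box TATAAA, searched on both strands. Gria2 is at chr3:80802786-80803085 (minus strand), Gabrb2 at chr11:42420190-42420489 (plus strand) and Htr2c at chrX:146962263-146962562 (plus strand).
Gria2: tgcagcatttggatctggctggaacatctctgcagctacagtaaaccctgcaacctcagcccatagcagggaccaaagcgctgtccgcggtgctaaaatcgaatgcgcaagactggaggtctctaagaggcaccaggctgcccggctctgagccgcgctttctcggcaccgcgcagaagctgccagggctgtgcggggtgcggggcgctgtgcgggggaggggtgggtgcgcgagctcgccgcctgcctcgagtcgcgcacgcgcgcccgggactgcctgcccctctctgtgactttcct
Gabrb2: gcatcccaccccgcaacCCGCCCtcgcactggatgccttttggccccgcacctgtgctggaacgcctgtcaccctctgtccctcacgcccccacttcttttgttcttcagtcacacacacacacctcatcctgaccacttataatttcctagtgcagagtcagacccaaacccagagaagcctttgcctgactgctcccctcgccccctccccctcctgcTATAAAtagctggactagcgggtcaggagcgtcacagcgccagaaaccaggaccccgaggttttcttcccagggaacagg
Htr2c: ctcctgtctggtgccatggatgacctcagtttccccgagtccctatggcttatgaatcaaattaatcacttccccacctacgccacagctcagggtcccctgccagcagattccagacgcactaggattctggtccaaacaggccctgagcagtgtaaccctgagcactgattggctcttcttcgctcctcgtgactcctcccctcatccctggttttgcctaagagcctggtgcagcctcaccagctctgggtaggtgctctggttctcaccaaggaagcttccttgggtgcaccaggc
Both motifs occur in the Gabrb2 window and neither occurs in those of Gria2 and Htr2c. Windows were available for 20 of the 29 members. The GC box occurred in 10 of these (50%), against 35.9% of 27025 windows. TATAAA occurred in 2, Gabra3 and Gabrb2 (10%), against 14.2% of all windows. The full cAMP response element TGACGTCA occurred in 0 of 20, against 1.88% of all windows. The median GC content of the windows was 58.3% for members and 52.7% for all genes.

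The AMPA subunit Gria2, whose edited RNA makes the receptor nearly impermeable to calcium, had 2756 and 2609.8 normalized reads in PIA+IL-27 1 and 2, with 627 and 559 in PIA 1 and 2, against 670.0 and 3073 in Control 1 and 2. Control 1 lay with the PIA libraries and Control 2 above all others. Gria3, another AMPA subunit, had 741 and 551 normalized reads in PIA+IL-27, with 159.5 and 147 in PIA, against 167 and 706 in Control 1 and 2. Gria4 had 787 and 732 in PIA+IL-27, with 374 and 223 in PIA, against 273 and 673 in Control 1 and 2. For all 3, both PIA+IL-27 libraries were above both PIA libraries, and for Gria2 and Gria3 both PIA libraries were below both Control libraries, by little against Control 1.

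Grik2, a kainate receptor subunit, had 692 and 1109.8 normalized reads in PIA+IL-27 1 and 2, with 598 and 290.2 in PIA 1 and 2, against 481 and 1192 in Control 1 and 2. The NMDA receptor subunits Grin2b and Grin2a, which bind glutamate, ran in parallel. Grin2b had 3271 and 3597 normalized reads in PIA+IL-27, with 1093 and 1119 in PIA, against 1042 and 3478 in Control 1 and 2. Grin2a ran from 229 normalized reads in Control 1 to 789 in Control 2. For these subunits too the 2 PIA+IL-27 libraries were above the 2 PIA libraries, and PIA lay between the Control libraries except for PIA 2 in Grik2.

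Among metabotropic receptors, Grm5, a Gq-coupled receptor found mainly on the postsynaptic side, had 2071 and 2662 normalized reads in PIA+IL-27 1 and 2, with 738 and 487 in PIA 1 and 2, against 757 and 2624 in Control 1 and 2. Grm8, a presynaptic Gi-coupled receptor, had 122 and 72.8 in PIA+IL-27, with 25.9 and 48.0 in PIA, against 42.1 and 88.6 in Control 1 and 2. Grm4, of the same presynaptic class, had 426 and 209 in PIA+IL-27 1 and 2, with 173 and 971 in PIA 1 and 2, against 239 and 183 in Control 1 and 2. Its high libraries were PIA 2 and PIA+IL-27 1, the same pair in which the neocortical markers summed highest.

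Of the GABA-A subunits, Gabrb2 had 1373 and 1060.2 normalized reads in PIA+IL-27 1 and 2, with 202 and 189.8 in PIA 1 and 2, against 234 and 983 in Control 1 and 2. Gabrb1 had 784 and 852 in PIA+IL-27, with 255 and 184 in PIA, against 246 and 987 in Control 1 and 2. For these beta subunits both PIA+IL-27 libraries were above both PIA libraries, and for Gabrb2 the PIA libraries were also below both Control libraries.

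Gabra2, an alpha subunit, had 599.6 and 1126 normalized reads in PIA+IL-27 1 and 2, with 278 and 93.8 in PIA 1 and 2, against 279.2 and 1069 in Control 1 and 2. PIA 1, at 277.7, was just under Control 1, at 279.2. Gabra3 had 2049 and 1357 in PIA+IL-27, with 1102 and 604 in PIA, against 623 and 1319 in Control 1 and 2. The alpha subunit Gabra4 and the gamma subunit Gabrg1 ranged from 51.3 normalized reads (Gabrg1 in PIA 2) to 529.7 (Gabra4 in PIA+IL-27 1), with both PIA+IL-27 libraries above both PIA libraries. Glra3, a glycine receptor subunit, had 57.3 and 5.83 in PIA+IL-27 1 and 2, with 0.961 and 12.001 in PIA 1 and 2, against 0.979 and 20.9 in Control 1 and 2, so that its groups overlapped in every comparison.

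The receptors for amines and acetylcholine were the least alike. Htr2c, a Gq-coupled serotonin receptor that is also abundant in the choroid plexus, had 173 and 618 normalized reads in PIA+IL-27 1 and 2, with 417 and 129.8 in PIA 1 and 2, against 348 and 1027 in Control 1 and 2. All 12 choroid plexus markers were listed, and their summed normalized reads were 1369 and 1486 in PIA+IL-27 1 and 2, with 12833 and 842 in PIA 1 and 2, against 660.2 and 65737 in Control 1 and 2. The highest library was Control 2 for Htr2c and for the marker sum. PIA 1 was next for the sum and PIA+IL-27 2 was next for Htr2c. In PIA 1 and Control 2 the sum was mostly Ttr, at 11302 and 58611 normalized reads. For Enpp2 and Kcnj13 PIA+IL-27 1 was next after Control 2, at 1139 and 49.0, and for the other markers it was PIA 1. The part of choroid plexus RNA in the Htr2c level was not tested.

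Htr3a, the ion channel among serotonin receptors, had 50.05 and 53.4 normalized reads in PIA+IL-27 1 and 2, with 57.7 and 20.7 in PIA 1 and 2, against 78.4 and 136 in Control 1 and 2, with all 4 libraries of the treated groups below both Control libraries. Drd5, a Gs-coupled dopamine receptor, had 5.21 and 35.9 in PIA+IL-27 1 and 2, with 16.3 and 14.2 in PIA 1 and 2, against 38.2 and 63.8 in Control 1 and 2, again with both Control libraries highest. Drd4 had 2.09 and 4.85 in PIA+IL-27, with 9.61 and 7.64 in PIA, against 12.7 and 7.62 in Control 1 and 2, few reads in every library. Htr1b, a Gi-coupled receptor often found on axon terminals, had 131 and 41.7 in PIA+IL-27 1 and 2, with 37.5 and 33.8 in PIA, against 28.4 and 87.6 in Control 1 and 2. For Htr1b the PIA libraries lay between the Control libraries.

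Htr2a, Htr2b and Chrm2 had few reads. Htr2a, a Gq-coupled receptor, had 46.9 and 22.3 normalized reads in PIA+IL-27 1 and 2, with 5.77 and 9.82 in PIA 1 and 2, against 4.90 and 19.996 in Control 1 and 2. Htr2b had 15.6 and 12.6 in PIA+IL-27, with 2.88 and 5.46 in PIA, against 4.90 and 4.76 in Control. Chrm2, a Gi-coupled muscarinic acetylcholine receptor, had 119 and 66.0 in PIA+IL-27, with 29.8 and 17.5 in PIA, against 14.7 and 61.9 in Control 1 and 2. For each of these, both PIA+IL-27 libraries were the highest of the 6.

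**Figure D2:**
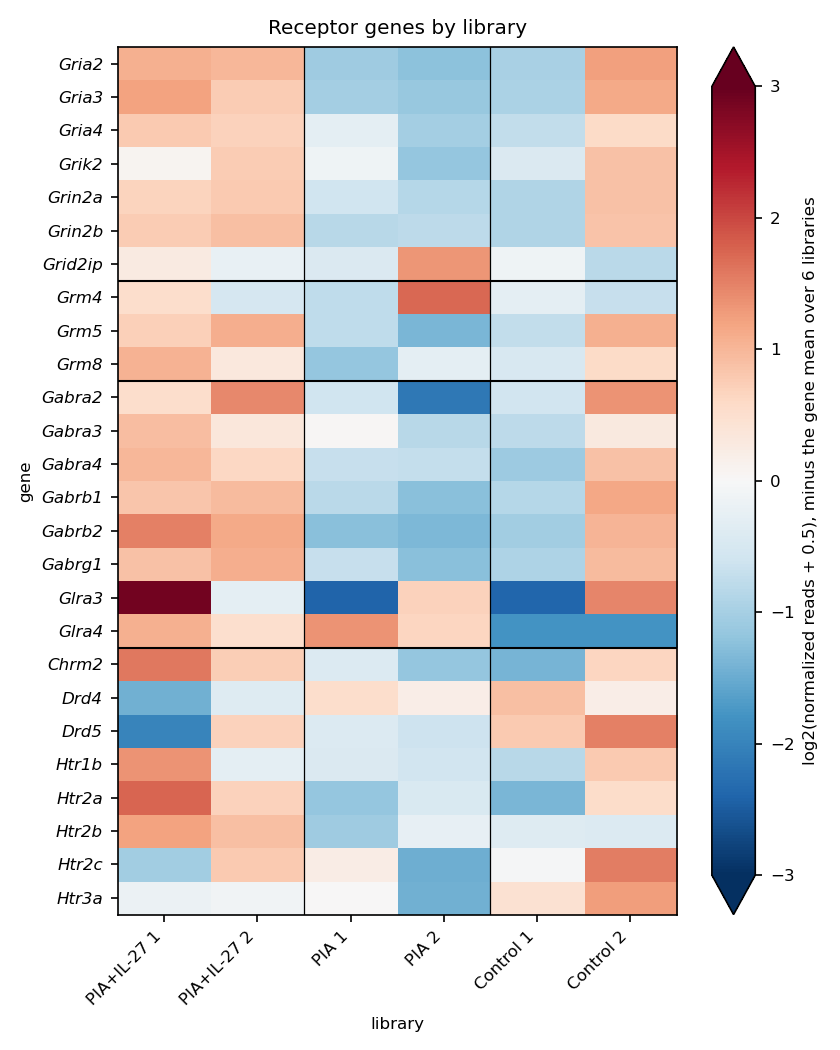
Heat map of 26 of the 29 members (rows, by receptor group) in the 6 libraries (columns, PIA+IL-27, PIA and Control), coloured by each gene's log2(normalized reads + 0.5) minus its own mean over libraries. Control 2 and both PIA+IL-27 libraries are above the other 3 libraries for 17 of the 26, against 52.4% of all deposited genes. This arrangement was picked out after the values were seen. Grm4 and Grid2ip are highest in PIA 2 and PIA+IL-27 1, as are 6.86% of all genes.

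In PIA against Control, receptor genes were mostly lower in PIA, but none passed the test. Of 27 tested members 0 were called at an adjusted p of 0.05 in edgeR's quasi-likelihood fit over all 3216 testable genes, in which 0.218% of genes were called (0.155% higher and 0.0622% lower in PIA). At an unadjusted p under 0.05, 2 members were lower (Gabra2 and Gria2; 3.23% of all genes) and 0 were higher (3.05%). DESeq2 and limma also called 0 members. The fitted log2 fold change was below 0 for 25 of 27 members, against 72.2% of all genes tested, with a median of -0.90 for members and -0.68 for all genes. With TMM factors over the listed genes 17 of 27 members and 1598 of 3216 genes were below 0, with medians of -0.14 and 0.00. The 2 members above 0 were Grm4 at 1.44 ± 0.88 and Grid2ip at 1.15 ± 1.13 (log2 fold change ± SE).

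The 6 members with the smallest p were Gabra2 with a log2 fold change of -1.86 ± 0.88, Gria2 with -1.66 ± 0.83, Gabrb2 with -1.63 ± 0.87, Gria3 with -1.51 ± 0.88, Gabrb1 with -1.49 ± 0.87 and Grm5 with -1.47 ± 0.83. The adjusted p of each was 0.617 by edgeR. Both PIA libraries were below both Control libraries for 7 of 29 members (Gria2, Gria3, Grm5, Gabra2, Gabrb2, Drd5 and Htr3a), against 16.5% of all deposited genes, and above them for 1, Glra4, against 17.2%. The authors' deposited table has 12 members called lower in PIA (34.4% of all genes) and 3 called higher, Grm4, Grid2ip and Glra4 (18%). By group, the median log2 fold change was -0.97 over 7 ionotropic glutamate genes, -0.82 over 3 metabotropic receptors, -0.88 over 10 tested GABA-A and glycine subunits and -0.70 over 7 tested amine and acetylcholine receptors. The sign of the last group turned with factors computed over the listed genes (0.03 with TMM), and that of the GABA-A and glycine group turned when a trend with GC content was removed (0.03). Without Control 2 the median of the members was 0.03, and without Control 1 it was -1.58.

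In PIA+IL-27 against PIA, most receptor genes had more normalized reads in PIA+IL-27 under the authors' scaling, from AMPA and NMDA subunits to all 9 GABA-A members (alpha, beta and gamma subunits). Of the listed GABA-A subunits outside the symbol rule, Gabrq, given below, also had both PIA+IL-27 libraries above both PIA libraries. Gabrd, given below, differed, as did Gabre, with 2.09 and 1.94 normalized reads in PIA+IL-27 against 7.69 and 8.73 in PIA. With TMM factors over the listed genes Grik2 was at -0.13 and 1 of 4 alpha subunits was below 0, and with a GC trend removed 1 subunit each of the alpha, beta and gamma GABA-A subunits was below 0. With all 6 libraries in the fit, 0 of 27 members were called by edgeR, as against 0.435% of all genes (0.0622% higher and 0.373% lower in PIA+IL-27), and DESeq2 and limma called 0. At an unadjusted p under 0.05, 9 members were higher in PIA+IL-27 (14.4% of all genes) and 0 lower (4.35%). The fitted log2 fold change was above 0 for 25 of 27 members, against 74.8% of all genes, with a median of 1.53 for members and 1.17 for all genes. With TMM factors 19 of 27 members and 1502 of 3216 genes were above 0, with medians of 0.26 and -0.04. The members below 0 were Grm4 at -0.85 ± 0.87 and Grid2ip at -0.66 ± 1.11; with a GC trend removed all 3 metabotropic receptors were above 0.

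Gabrb2 had the smallest p, with a log2 fold change of 2.63 ± 0.90 and an adjusted p of 0.203 by edgeR. Next were Gria2 (2.18 ± 0.84), Gabra2 (2.21 ± 0.89), Grm5 (1.95 ± 0.84) and Gria3 (2.07 ± 0.89), each with an adjusted p of 0.257, and Gabrb1 (1.90 ± 0.88) with 0.258. When edgeR was fitted with the 4 libraries of this comparison only, which leaves out the spread between the Control libraries, 9 of 27 members passed as higher in PIA+IL-27 and 0 as lower. Among them were Gabrb2, Gria3, Gria2, Gabrb1, Grm5, Gabrg1, Gabra4 and Grin2b, and those that passed had adjusted p from 0.0493 to 0.0497. In the same fit 13.8% of all genes passed as higher and 1.16% as lower.

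Both PIA+IL-27 libraries were above both PIA libraries for 21 of 29 members, against 57.1% of all deposited genes. They were below for Drd4 alone, against 16.5% of all genes. By role, the groups were separated upwards for 6 of 7 ionotropic glutamate genes, 2 of 3 metabotropic receptors, all 9 GABA-A members and 4 of 8 amine and acetylcholine receptors. The 7 members with overlap were Grid2ip, Grm4, Glra3, Glra4, Drd5, Htr2c and Htr3a. The authors' deposited table has 22 members called higher in PIA+IL-27 (61.4% of all genes) and 0 lower (18.2%). The median log2 fold change was 1.45 over ionotropic glutamate genes, 1.40 over metabotropic receptors, 1.82 over GABA-A and glycine subunits and 1.28 over amine and acetylcholine receptors; the last was -0.04 with TMM factors over the listed genes. Leaving out PIA+IL-27 1 and PIA 2, the libraries with the highest neocortical marker sums, left 1 library in each of these groups. The median of the members was then 1.34, against 0.90 for all genes.

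**Figure D3:**
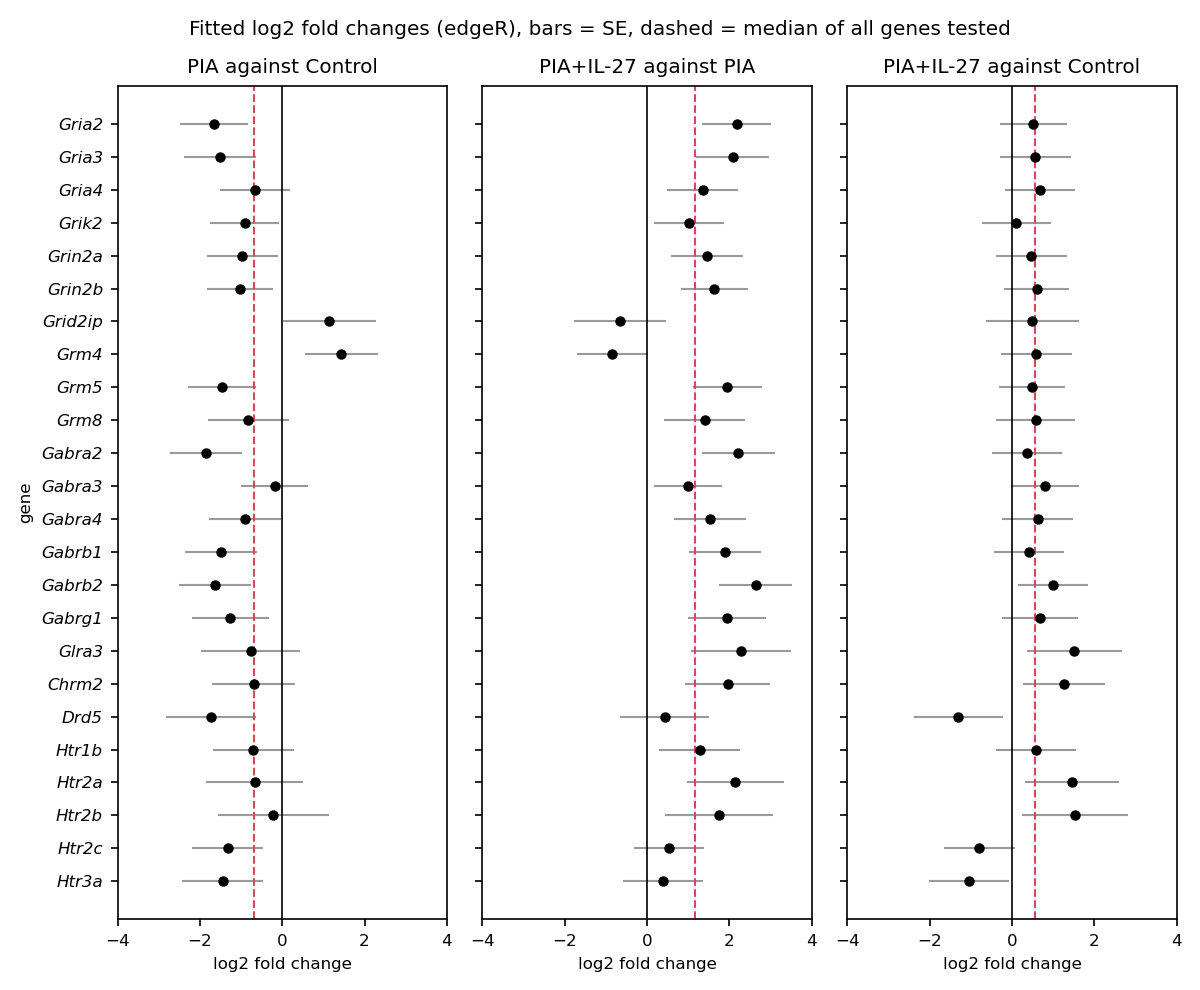
Fitted log2 fold change of 24 of the 27 tested receptor genes in the 3 comparisons, with bars of 1 SE and a dashed line at the median of all genes tested, from edgeR over all 6 libraries. In PIA+IL-27 against PIA 22 of these 24 genes lie above 0, against 74.8% of all genes tested. In PIA against Control 22 lie below 0, against 72.2% of all genes tested. No plotted gene is past the threshold in either, and both comparisons use the same PIA libraries.

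In PIA+IL-27 against Control, the median log2 fold change of the members was 0.59, against 0.55 for all genes, and 24 of 27 were above 0 (73.3% of all genes). With TMM factors 17 of 27 members and 1563 of 3216 genes were above 0, with medians of 0.12 and -0.02. No member was called by edgeR (0 of 27, against 0.311% of all genes, 0.187% higher and 0.124% lower in PIA+IL-27), DESeq2 or limma. At an unadjusted p under 0.05 there were 0 higher (1.65%) and 0 lower (1.21%). The smallest p belonged to receptors with few reads: Glra3 (1.51 ± 1.16), Htr2a (1.46 ± 1.14), Chrm2 (1.27 ± 1.003), Drd5 (-1.30 ± 1.07) and Htr2b (1.52 ± 1.29), followed by Gabrb2 (0.9998 ± 0.85), each with an adjusted p of 0.835 by edgeR. For Glra3 the value rests on PIA+IL-27 1, and it was -0.90 without that library and 4.84 without Control 2.

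Both PIA+IL-27 libraries were above both Control libraries for 10 of 29 members (among them Gria4, Gabra3, Gabrb2, Glra4, Chrm2, Htr2a and Htr2b), against 23% of all deposited genes. They were below for Drd4, Drd5 and Htr3a, against 7.5% of all genes. The authors' deposited table has 4 members called higher in PIA+IL-27 (13.3% of all genes) and 3 lower (8.57%). The median over metabotropic receptors was 0.57 and that over amine and acetylcholine receptors 0.58; with TMM factors over the listed genes they were -0.08 and -0.01. The median of all members ran from 0.03 without Control 1 to 1.64 without Control 2.

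The Control libraries differed widely from each other, with a median log2 ratio of Control 2 to Control 1 of 1.61 over members and 1.25 over all genes. For 22 of 29 members (75.9%) the Control libraries differed by over 2-fold, as did 71% of all deposited genes. In PIA and in PIA+IL-27 it was 7 members each (24.1%), against 33.4% and 33% of all genes. Control 2 and both PIA+IL-27 libraries were above the other 3 libraries for 20 members (69%), against 52.4% of all genes, an arrangement picked out after the values were seen. Over 2-fold differences are counted on ratios of normalized reads with 0.5 added.

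The make-up of the listed AMPA and NMDA subunits moved less than their totals. Shares are of the listed subunits only: subunits that were not listed, Gria1 and Grin1 among them, do not enter, so these are not shares of the whole families. Summed TPM of the 3 listed AMPA subunits was 76.1 and 72.8 in PIA+IL-27 1 and 2, with 21.4 and 16.3 in PIA 1 and 2, against 19.8 and 87.3 in Control 1 and 2. Gria2 made up 50.6% and 55.0% of it in PIA+IL-27, with 40.3% and 47.3% in PIA, against 48.9% and 58.5% in Control, while Gria4 made up 27.6% and 27.7% in PIA+IL-27, 44.1% and 34.6% in PIA, and 33.5% and 21.99% in Control. The ranges of PIA and of the other 2 groups did not overlap for either subunit. The exact permutation test of 2 libraries against 2 cannot go below a two-sided p of 0.333. Grin2b made up 71.3% to 75.99% of the summed TPM of Grin2a and Grin2b, which was 19.5 and 21.9 in PIA+IL-27 1 and 2, with 6.47 and 6.01 in PIA 1 and 2, against 5.80 and 22.9 in Control 1 and 2. The ratio of Grin2b to Grin2a in TPM stayed between 2.48 and 3.17 in all 6 libraries.

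**Figure D4:**
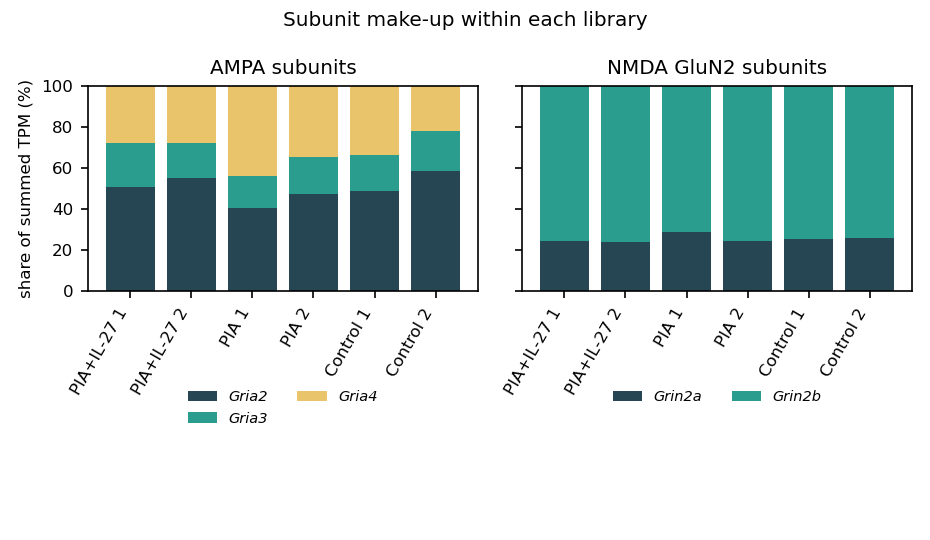
Share of each listed subunit in the summed TPM of the listed subunits of its family (AMPA and NMDA, in percent, stacked bars from 0 to 100) in the 6 libraries, ordered PIA+IL-27, PIA and Control. Subunits that were not listed do not enter the sums. Gria4 holds 34.6% to 44.1% of the listed AMPA subunits in PIA and 21.99% to 33.5% in the other libraries. Grin2b holds 71.3% to 75.99% of the listed NMDA subunits in every library.

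GABA-A subunit genes lie in clusters in the mouse genome, and the listed genes of 2 of them were summed. On chromosome 5, Gabra2, Gabra4, Gabrb1 and Gabrg1 summed to 40.6 and 51.65 TPM in PIA+IL-27, with 14.1 and 8.39 in PIA, against 12.6 and 55.3 in Control. On chromosome X, Gabra3 with the listed neighbours Gabre and Gabrq, which fall outside the symbol rule, summed to 65.4 and 45.2 TPM in PIA+IL-27, with 33.1 and 17.8 in PIA, against 18.6 and 47.25 in Control. In both clusters both PIA+IL-27 libraries were above both PIA libraries, and Control 1 was below PIA 1.

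Some of the differences between libraries moved with the GC content of the transcripts. GC content was 43.0% in the median over members, between 35.2% and 61.7%, against 44.8% over the 3589 genes with a value. Across the 29 members, Spearman's rho between GC content and the log2 ratio was -0.68 in PIA+IL-27 against PIA (all genes -0.64), 0.25 in PIA against Control (0.31) and -0.73 in Control 2 against Control 1 (-0.50). Between the other replicates it was 0.25 in PIA 2 against PIA 1 (0.17) and -0.09 in PIA+IL-27 2 against PIA+IL-27 1 (0.02). These are descriptions, since genes of 1 library are not independent. The 6 members above a gap in GC content (49.1% to 61.7%: Grid2ip, Grm4, Glra4, Drd4, Drd5 and Htr3a) had log2 ratios of -1.29 to 0.57 in PIA+IL-27 against PIA. The other 23 (35.2% to 45.9%) had 0.49 to 2.62. The gap was chosen after the values were seen, and the part of GC content in the results was not tested. With a trend on GC content removed per library, the median of the members was 0.44 in PIA+IL-27 against PIA and -0.11 in PIA against Control. The medians of all genes tested were then 0.07 and -0.02. This removal also rescales each library, so the part of GC content cannot be read from these medians.

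**Figure D5:**
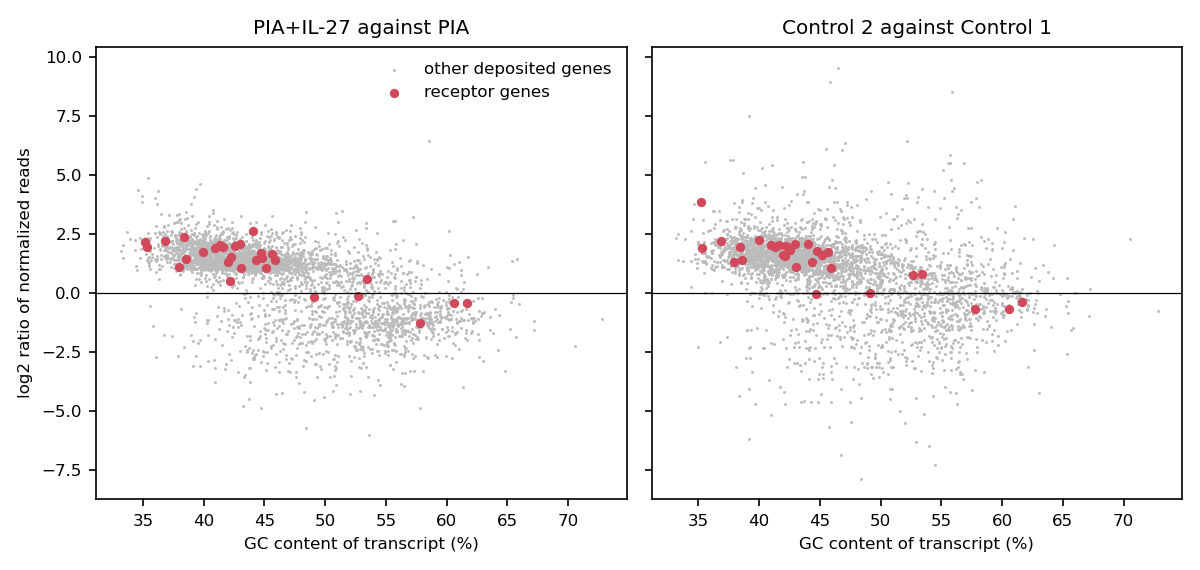
Log2 ratio of normalized reads against the GC content of the transcript (percent) for all deposited genes with a GC value (grey) and the 29 members (coloured), for PIA+IL-27 against PIA and for Control 2 against Control 1. Members with the highest GC content, Grm4 and Grid2ip among them, are among the lowest in PIA+IL-27 against PIA.

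Some members were highest or lowest in 1 pair of libraries across groups, a pair picked out after the values were seen. The share of members highest in it was near that of all genes. Grm4 and Grid2ip were above the other 4 libraries in PIA 2 and PIA+IL-27 1 (2 of 29 members, 6.9%, against 6.86% of all genes), and Drd5, Htr2c and Htr3a were below the other 4 in the same pair (10.3%, against 6.35%). Grid2ip had 20.9 and 14.6 normalized reads in PIA+IL-27 1 and 2, with 12.5 and 43.6 in PIA 1 and 2, against 15.7 and 9.52 in Control 1 and 2. That pair had the highest sums of the neocortical markers given above. Cux2, Rorb, Cplx3 and Ccn2 were each highest in the pair. The remaining listed marker, Rspo1, was lowest in PIA+IL-27 1, at 11.5 normalized reads, and highest in Control 1, at 61.7. The 4 listed dentate granule cell markers summed to 919 and 1900.1 normalized reads in PIA+IL-27 1 and 2, with 945 and 309 in PIA 1 and 2, against 823 and 1942 in Control 1 and 2, lowest in PIA 2. Of the 4, Prox1, Dsp and Lct were lowest in PIA 2 and PIA+IL-27 1, and Prox1 had 172 and 1358 in PIA+IL-27 1 and 2, with 627 and 96.0 in PIA 1 and 2, against 589.7 and 1296 in Control 1 and 2. The other, Stxbp6, was highest in PIA+IL-27 1, at 709. The 2 listed CA1 markers were also lowest in that pair: they summed to 215 and 1113 in PIA+IL-27 1 and 2, with 1631 and 507 in PIA 1 and 2, against 1245 and 1736 in Control 1 and 2. The neuronal genes Snap25 and Map2, 2 of 5 neuronal markers, summed to 17436 and 18791 in PIA+IL-27, with 9035 and 4988 in PIA, against 6894 and 16826 in Control 1 and 2, with Control 2 and both PIA+IL-27 libraries above the other 3, as for most receptor subunits. The part of tissue or cell make-up in the receptor results was not tested.

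Genes around the receptors were read from lists of the pathway. Over all genes tested the median log2 fold change was 1.17 in PIA+IL-27 against PIA and -0.68 in PIA against Control. The share of all genes called was 0.435% and 0.218% in these comparisons and 0.311% in PIA+IL-27 against Control. Of 43 scaffolds and auxiliary subunits of glutamate receptors 6 were listed, and 0 of these were called in any comparison, with a median log2 fold change of 1.30 in PIA+IL-27 against PIA and -0.56 in PIA against Control. Lrrtm2, a synaptic adhesion protein, had 542 and 404 normalized reads in PIA+IL-27, with 112 and 122 in PIA, against 120.5 and 405 in Control 1 and 2. Neto2, an auxiliary subunit of kainate receptors, had 2807 and 1704 in PIA+IL-27, with 789 and 651 in PIA, against 652 and 1448 in Control 1 and 2. Both had their PIA+IL-27 libraries above PIA. Grip2, a scaffold that binds AMPA subunits, had 1113 and 437 in PIA+IL-27 1 and 2, with 628 and 2544 in PIA 1 and 2, against 692 and 385 in Control 1 and 2, highest in the same pair of libraries as Grm4.

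Of 17 partners of inhibitory synapses 4 were listed and 0 called. Their medians were 1.97 in PIA+IL-27 against PIA (all genes 1.17) and -1.41 in PIA against Control (all genes -0.68). Kctd16, an auxiliary subunit of GABA-B receptors, had 721 and 399 normalized reads in PIA+IL-27, with 106 and 159 in PIA, against 101 and 458 in Control 1 and 2. Its log2 fold change in PIA+IL-27 against PIA was 2.08 ± 0.90 with an adjusted p of 0.257 by edgeR. Kctd12b, of the same family, had 2.32 ± 1.07 and Plcl1, a protein that binds GABA-A receptors, 1.86 ± 0.98 in that comparison. GABA-B receptor genes themselves were not listed.

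Of 34 genes for the synthesis, transport and breakdown of transmitters 10 were listed, 9 were tested and 0 called. Gad2, which makes GABA and marks inhibitory neurons, had 591 and 581 normalized reads in PIA+IL-27, with 185 and 159 in PIA, against 176 and 924 in Control 1 and 2, in the same arrangement as the GABA-A subunits. Slc5a7, the choline transporter of cholinergic terminals, had 13.6 and 14.6 in PIA+IL-27, with 0.961 and 2.18 in PIA, against 1.96 and 18.1 in Control 1 and 2. Tph1, an enzyme of serotonin synthesis, had 3.13 and 11.7 in PIA+IL-27, with 3.84 and 1.09 in PIA, against 9.79 and 40.9 in Control 1 and 2. The lowest library of each was a PIA library, and Slc5a7 and Tph1 had few reads throughout.

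Of 13 activity-regulated genes only Bdnf was listed, at 46.9 and 151 normalized reads in PIA+IL-27 1 and 2, with 36.5 and 18.5 in PIA 1 and 2, against 45.1 and 130.4 in Control 1 and 2; it was called in no comparison. Of 32 further receptor subunits outside the symbol rule 8 were listed, 6 were tested and 0 called. Their median was -0.03 in PIA+IL-27 against PIA (all genes 1.17) and -0.85 in PIA against Control (all genes -0.68). Hrh3, a histamine receptor on axon terminals, had 421 and 125 normalized reads in PIA+IL-27 1 and 2, with 137 and 614 in PIA 1 and 2, against 161 and 129 in Control. Gabrd, the delta subunit of extrasynaptic GABA-A receptors, had 215 and 90.3 in PIA+IL-27 1 and 2, with 127 and 437 in PIA 1 and 2, against 111 and 109 in Control. Both were highest in PIA 2 and PIA+IL-27 1. Gabrq, the theta subunit, had 28.2 and 62.1 in PIA+IL-27, with 25.9 and 14.2 in PIA, against 26.4 and 80.9 in Control 1 and 2. Chrna5, a nicotinic subunit whose symbol has a letter before the digit, had 97.0 and 435 in PIA+IL-27 1 and 2, with 259 and 30.5 in PIA 1 and 2, against 254 and 378 in Control, lowest in the pair in which Hrh3 was highest.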

How the data were processed

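RNA was sequenced from hippocampus in 6 libraries, which were grouped by the treatment in the labels. The deposited table gives, per the file headers, an expected count (read count), TPM, FPKM and a normalized read count per gene and library. The normalized read count is a signal, the authors' read count rounded up and divided by 1 factor per library (0.917 to 1.05). The authors also deposited p-values and Q values beside the log2 fold change of each comparison. FPKM served only to estimate depth, over 25 genes of 2000 bases or more with an FPKM of 3 or more. Of the counts, 11.3 to 13.3% per library are not whole, none of them of members. The sources used here do not give the aligner, the counter, the genome build, the strandedness or the authors' test.

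Counts were rounded and fitted by the quasi-likelihood method of edgeR 4.0.16 in R 4.3.3 on all 6 libraries, with the authors' factors as scaling, after filterByExpr by group (3216 genes), and adjusted by Benjamini-Hochberg over these with a threshold of 0.05. The design had no block, because replicate numbers are not stated to pair samples. The log2 differences between replicates correlated across genes at -0.31 (PIA+IL-27 and PIA), 0.04 (PIA+IL-27 and Control) and 0.07 (PIA and Control). These correlations do not show whether samples were paired. Alternatives were factors by TMM or median of ratios over the listed genes, no filter, a replicate block, fits on the libraries of 1 comparison alone, leaving out each library, DESeq2 1.42.0, limma 3.58.1 on log2(TPM + 1) or log2(TPM + 0.1), and removal of a GC trend (loess, span 0.5). Leaving out PIA 2 and PIA+IL-27 1 together and a crossed block were added after seeing the data. The fit was tested on simulated data.

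Because all listed genes were selected on these libraries, adjusted p-values do not control the false discovery rate over the genome, and intervals cover these samples only. Members and lists were chosen with earlier results of these data known. Statistics are given for the 6 members with the smallest p per comparison, per-library values for these and for the 3 of highest mean TPM in each receptor group, and up to 3 genes per pathway list; other values, Grid2ip, Drd4, Drd5, Grin2b, Chrna5 and the low serotonin receptors among them, were added after they were seen. Of the members, 3 are not reported here by name; they stay in the fit, the counts and the medians. GC content is that of the longest protein-coding GENCODE transcript of each gene, and promoter windows and neighbours come from RefSeq.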

Additional observations from a re-analysis of the deposited data

How the results depend on the processing

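Among alternatives that kept 2 libraries per group, the number of receptor genes called was 0 in all 3 comparisons, except in PIA+IL-27 against PIA. There 9 were called with only the 4 libraries of that comparison. With a crossed pairing of these libraries as a block 15 of 27 were called, all higher. In that fit 970 of 3006 genes were higher and 225 lower. The crossed block was chosen after seeing the data because same-numbered replicates deviated in opposite directions. The median log2 fold change of the members in PIA against Control was -0.14 with TMM factors, -0.15 with median-of-ratios factors and -0.11 with the GC trend removed, and with 1 library left out it ran from -1.58 to 0.032, the value 0.032 without Control 2. In PIA+IL-27 against PIA it was 0.26, 0.30 and 0.44 under the same 3 settings and 1.34 to 1.70 with 1 library left out. In PIA+IL-27 against Control it ran from 0.025 without Control 1 to 1.64 without Control 2. The medians of all genes are near 0 by construction under TMM factors (0.00, -0.04 and -0.02 in the order of the comparisons), against -0.68, 1.17 and 0.55 with the authors' factors. Removal of the GC trend also rescales each library, and the medians of all genes were then -0.02, 0.07 and 0.03. With the replicate block the medians of the members were -0.78, 1.56 and 0.72, and the block changed no call of a member. Over all genes tested 3, 4 and 3 were called with the block, against 7, 14 and 10 without it. Glra3 in PIA+IL-27 against Control ran from -0.90 without PIA+IL-27 1 (also -0.90 with PIA 2 left out too) to 4.84 without Control 2. The cause of the other shifts was not tested. With 2 libraries per group and a pooled coefficient of variation of 0.597, a p that misses the threshold does not show that a receptor gene did not differ, and genes with few reads (Glra3, Glra4, Drd4, Htr2b) are the least certain.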
